A study of Mus musculus with 18 samples.

Results

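The genes described are the chains of the integrins and laminins, 36 genes in all, of 55450 genes in the deposited table. They were chosen by symbol: 26 integrin chains and 10 laminin chains, each on a single row. All 36 passed the filter on low counts. RNA was sequenced from 15 mammary tumors and 3 normal mammary glands of C57Bl/6 females, a mouse per library. Each tumor model carried Trp53fl/fl, a conditional allele of the tumor suppressor p53, and tumors were induced by injecting Ad5-CMV-Cre, an adenovirus that expresses Cre recombinase from a promoter active in most cell types, through the nipple into the mammary ducts. B1/P/Rbf tumors (n = 5) had the genotype Brca1fl/fl/Trp53fl/fl/TgK18GT121Tg/+, B1/P tumors (n = 5) had Brca1fl/fl/Trp53fl/fl, and P/Rbf tumors (n = 5) had Trp53fl/fl/TgK18GT121Tg/+. The TgK18GT121 transgene expresses T121, a fragment of the SV40 large T antigen that inhibits the Rb family proteins (Rbf), after Cre recombination and from the keratin 18 promoter of luminal epithelium. Normal glands (n = 3) came from wild type females that carried none of these alleles. A bulk library holds tumor cells together with stroma, so fewer cells of a type and less RNA per cell cannot be told apart.

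Integrins are receptors on the cell surface made of an α and a β chain. They hold cells to the extracellular matrix or to other cells and pass signals in both directions across the membrane. Laminins are cross-shaped proteins of an α, a β and a γ chain, and they form the sheet of the basement membrane on which mammary epithelium rests. Epithelial cells bind laminins through integrins α3β1, α6β1 and α6β4, the last of which anchors the keratin filaments in hemidesmosomes, while α7β1 is the laminin receptor of muscle. The remaining integrins bind collagens, proteins with an RGD motif such as fibronectin and latent TGF-β, or counter-receptors on other cells.

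Values per sample are counts scaled to library size with TMM factors (CPM), given for tumors 1 to 5 or glands 1 to 3 of a group, in accession order. Fold changes are log2 values of the first group over the second with their standard error (SE), and a gene was called when the adjusted p over all 19186 genes tested was 0.05 or less. Totals of expected counts ran from 27661173 to 37794889 per library. Brca1 lay at 21.1 to 45.0 CPM in the B1/P/Rbf model, 8.13 to 27.9 CPM in B1/P tumors, 44.9 to 116 CPM in P/Rbf tumors and 4.61 to 5.99 CPM in normal glands. Loss of Brca1 expression is described as partial in B1/P/Rbf tumor 3, which had the highest Brca1 value of its group. Trp53 lay at 6.75 to 24.3 CPM over all tumors and at 54.4 to 71.8 CPM in normal glands. These whole-gene counts include exons outside the floxed parts, so they check the deletions only in part, and the T121 transgene has no row of its own. The libraries also fall into 2 sets by mouse number, a split taken from an earlier analysis of these data whose nature the labels do not give. The first set holds B1/P tumors 1 to 3 with every B1/P/Rbf tumor, and the second holds B1/P tumors 4 and 5 with every P/Rbf tumor and normal gland. Since B1/P tumors lie in both sets, a term for the set could be fitted, and its estimate rests on those 5 tumors. Its effect on the calls is given with each comparison.

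The first comparison asked how these chains differed where T121 was added to loss of Brca1 and p53. Against B1/P tumors, 11 of 36 members were called in B1/P/Rbf tumors, 2 higher and 9 lower. Over all genes tested the share called was 16.7%, with 7.36% higher and 9.29% lower. Laminin chain Lama5 and integrin chain Itgb6 were the higher ones. Lower were the laminin chains Lama1, Lama2, Lama4 and Lamc1 and the integrin chains Itga1, Itga8, Itga9, Itgb4 and Itgb8. Of the 36 members, 1 was higher and 7 were lower without any overlap between the groups, where the shares over all genes were 5% and 5.48%. The median log2 fold change was -0.35 over the members, 13 positive and 23 negative, and -0.06 over all genes tested. Without B1/P/Rbf tumor 3, 9 members were called, where 13% of all genes were, and the calls of Itga1 and Lama2 were lost. A term for the set of libraries called 12 members, the same 11 and Itgax (lower, adjusted p = 0.0412), where 12.4% of all genes were called. Within the first set of libraries, with 3 B1/P tumors, 7 members were called, where 7.73% of all genes were, and the calls of Itga1, Itga9, Itgb6 and Lama1 were lost.

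P/Rbf tumors, which carry T121 with intact Brca1, were compared with the same B1/P tumors. Here 14 of 36 members were called, 3 higher and 11 lower, where 19.2% of all genes were called, 8.43% higher and 10.8% lower. The median log2 fold change was -0.08 over the members, 17 of them positive and 19 negative, and -0.05 over all genes tested. Since the B1/P tumors serve in both comparisons, the values of each are given side by side and their likeness is no separate result. Lama5, Itgb6 and Itgav were higher, and Lama1, Lama2, Lama4, Lamc1, Itga1, Itga8, Itga9, Itgax, Itgb2, Itgb4 and Itgb8 were lower. Without overlap between the groups 0 members were higher and 7 lower, where the shares over all genes were 3.74% and 5.11%. A fit with a term for the set of libraries called 7 members, where 10.5% of all genes were called, and the calls of Itga1, Itgav, Itgax, Itgb2, Itgb4, Itgb6 and Lama1 were lost. The second set alone, with 2 B1/P tumors, called 4, where 4.01% of all genes were called, and the calls of Lama2, Lama5 and Lamc1 were lost as well.

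**Figure D1:**
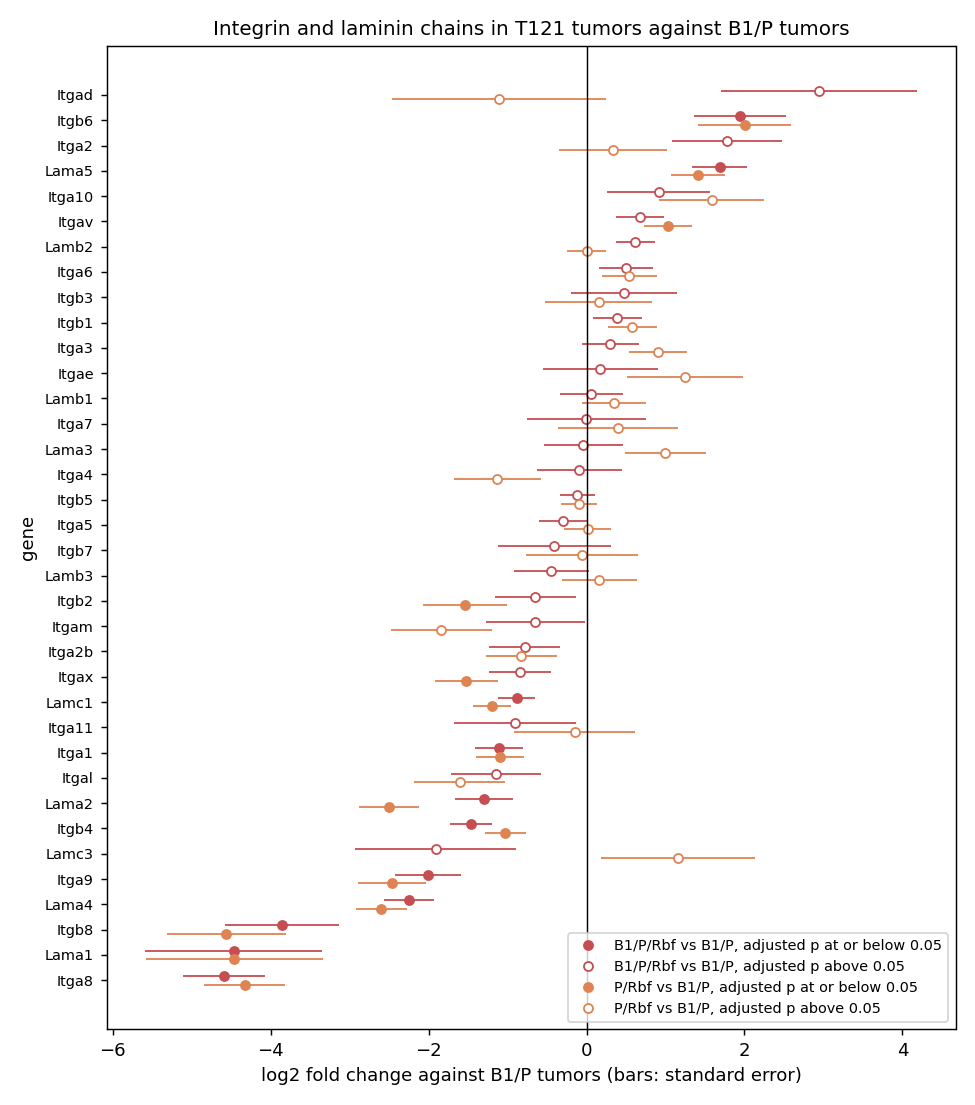
Log2 fold change (x axis) of each of the 36 genes (y axis) in B1/P/Rbf tumors (red) and P/Rbf tumors (orange) against the same B1/P tumors, n = 5 each. Bars are standard errors, filled points passed an adjusted p of 0.05, and Itga8 has the lowest value of B1/P/Rbf tumors at -4.59.

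The third comparison, of B1/P/Rbf with P/Rbf tumors, asked about Brca1 loss where T121 was present. All B1/P/Rbf tumors lie in the first set of libraries and all P/Rbf tumors in the second. Brca1 loss and the set cannot be told apart by these groups, and a term for the set rests on the B1/P tumors alone. edgeR called 0 of 36 members, where 0.281% of all genes were called, 0.219% higher and 0.0625% lower. Without overlap 1 member was higher and 0 were lower, where the shares over all genes were 1.71% and 1.31%. At an unadjusted p of 0.05, 4 members passed, where 16.1% of all genes did. With 1 sample left out this count ran from 3 without B1/P/Rbf tumor 5 (12.9% of all genes) to 10 without P/Rbf tumor 4 (15.2%). DESeq2 called 2 members, Lama2 and Lamc3, where it called 5.35% of all genes. With a term for the set of libraries 0 members and 0.0261% of all genes were called, and without B1/P/Rbf tumor 3 these were 0 members and 0.361%. The member without overlap was Lama2, whose log2 fold change was 1.20 (SE 0.36, edgeR adjusted p = 0.128).

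Among the laminin α chains, which determine what receptor a laminin engages, the balance between Lama5 and Lama4 differed between the tumor models. Lama5 encodes the α5 chain of adult epithelial basement membranes, and Lama4 the α4 chain of vessels and other mesenchymal basement membranes. Lama5 (chr2:180176373-180225859, minus strand, GRCm38) stood at 641, 1330, 1001, 916 and 1389 CPM in B1/P/Rbf tumors. For B1/P tumors it stood at 537, 321, 327, 239 and 217 CPM, below every B1/P/Rbf tumor. P/Rbf tumors had 627, 1701, 445, 737 and 860 CPM, and normal glands had 205, 258 and 165 CPM. P/Rbf tumor 3 lay below B1/P tumor 1, so those groups overlapped. Lama5 rose by 1.68 in B1/P/Rbf tumors (SE 0.35, adjusted p = 0.00386) and by 1.41 in P/Rbf tumors (SE 0.34, adjusted p = 0.00992) against B1/P tumors. In the second set of libraries alone the adjusted p of the latter was 0.0949.

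Lama4 (chr10:38965515-39110188, plus strand) ran the other way. It measured 64.6, 39.6, 33.2, 28.5 and 34.6 CPM in B1/P/Rbf tumors against 195, 168, 123, 165 and 299 CPM in B1/P tumors. P/Rbf tumors had 19.8, 42.9, 22.4, 51.1 and 20.4 CPM, and normal glands 106, 119 and 119 CPM. Every T121 tumor lay below every B1/P tumor and every normal gland. The fold change was -2.24 in B1/P/Rbf tumors (SE 0.32, adjusted p = 0.00047) and -2.60 in P/Rbf tumors (SE 0.32, adjusted p = 0.00019). Both Lama4 calls held in every alternative that tested them.

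Per kb of exon, which allows levels of different genes to be compared, Lama5 made up 88.6% ± 6.46 (SD, n = 5) of the summed level of the 5 laminin α chains in B1/P/Rbf tumors. The share was 82.1% ± 5.55 (SD, n = 5) in P/Rbf tumors, 50.4% ± 11.9 (SD, n = 5) in B1/P tumors and 59.1% ± 6.71 (SD, n = 3) in normal glands. Lama4 held 3.54%, 3.16%, 28.9% and 31.1% in the same order. In B1/P tumors the α chain mixture lay nearer to that of the normal gland than to that of T121 tumors, as a description without a test. The difference of log2 CPM between Lama4 and Lama5 ranged from -5.32 to -3.31 in B1/P/Rbf tumors, from -5.40 to -3.85 in P/Rbf tumors, from -1.46 to 0.46 in B1/P tumors and from -1.11 to -0.47 in normal glands.

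**Figure D2:**
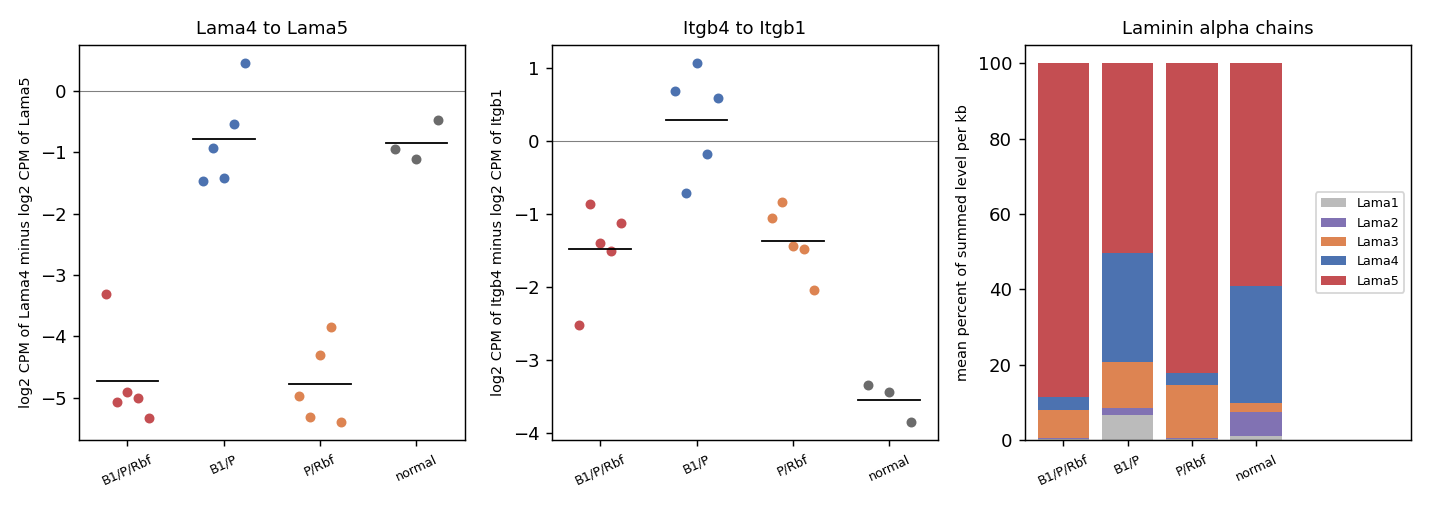
Left and middle, difference of log2 CPM between Lama4 and Lama5 and between Itgb4 and Itgb1 in each sample (points) with the group mean (line); right, mean percent of each laminin α chain in the summed level per kb of exon. Lama5 takes 88.6% in B1/P/Rbf tumors and 50.4% in B1/P tumors.

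Lama2, the α2 chain of muscle and mesenchymal basement membranes, stood at 10.2, 4.99, 5.49, 6.44 and 7.24 CPM in B1/P/Rbf tumors. It stood at 20.2, 13.8, 27.4, 12.8 and 10.2 CPM in B1/P tumors and at 2.39, 4.26, 4.61, 1.79 and 1.87 CPM in P/Rbf tumors. The 3 models did not overlap, B1/P and B1/P/Rbf tumors by a narrow margin, and P/Rbf tumors were lowest. Normal glands had 37.9, 17.8 and 38.6 CPM, of which gland 2 lay within the range of B1/P tumors. Lama2 had fold changes of -1.30 in B1/P/Rbf tumors (SE 0.36, adjusted p = 0.0215) and -2.50 in P/Rbf tumors (SE 0.38, adjusted p = 0.00069). Without B1/P tumor 3 the first of these had an adjusted p of 0.0612, and without B1/P/Rbf tumors 2 or 3 it had 0.0554 and 0.0519. In the second set of libraries alone the P/Rbf difference in Lama2 had an adjusted p of 0.0806.

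Lama1, the α1 chain of embryonic laminin, differed widely among B1/P tumors, with 4.90, 3.52, 162, 2.99 and 32.8 CPM. B1/P/Rbf tumors had 4.23, 0.809, 2.95, 0.659 and 0.617 CPM and P/Rbf tumors 0.633, 4.35, 2.61, 1.29 and 0.443 CPM, with 4.85, 2.29 and 3.11 CPM in normal glands. Only B1/P tumors 3 and 5 stood clearly above the range of the other groups. The fold changes of -4.47 (SE 1.12, adjusted p = 0.0123) and -4.46 (SE 1.12, adjusted p = 0.0115) rest on those tumors, and without B1/P tumor 3 they were -2.58 and -2.57, with adjusted p values of 0.0577 and 0.0547. The first had 0.0504 within the first set of libraries, and the second had 0.0916 with a term for the set and 0.124 within the second set. By limma the adjusted p values of Lama1 were 0.0691 and 0.0917.

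Lama3, the α3 chain of the hemidesmosomal laminin that epithelial cells secrete, was called in no comparison between tumor models. It measured 85.7, 48.6, 140, 59.6 and 33.5 CPM in the B1/P/Rbf model, 88.1, 65.5, 99.5, 36.6 and 88.1 CPM in B1/P tumors and 90.8, 311, 91.1, 26.5 and 235 CPM in P/Rbf tumors. Each tumor exceeded the normal glands, at 8.72, 6.15 and 6.64 CPM. Against normal gland Lama3 rose by 3.36 (SE 0.69, adjusted p = 0.00109), 3.40 (SE 0.69, adjusted p = 0.00119) and 4.40 (SE 0.73, adjusted p = 0.00017) in the B1/P/Rbf, the B1/P and the P/Rbf model.

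Lamb3, the β3 chain that joins α3 in the same laminin, had the same calls. It stood at 115, 108, 125, 99.8 and 72.3 CPM in the B1/P/Rbf model, at 93.8, 123, 154, 71.1 and 268 CPM in B1/P tumors, at 176, 285, 111, 19.3 and 202 CPM in P/Rbf tumors and at 17.2, 11.6 and 14.4 CPM in normal glands. No tumor was as low as a normal gland, and P/Rbf tumor 4 came nearest. The rise against normal gland was 2.85 (SE 0.62, adjusted p = 0.00182), 3.30 (SE 0.64, adjusted p = 0.00082) and 3.46 (SE 0.64, adjusted p = 0.00048) in the B1/P/Rbf, the B1/P and the P/Rbf model.

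The β1 and β2 chains, which most other laminins share, were called in none of the 6 comparisons by the edgeR fit of all samples with TMM scaling. Without TMM, Lamb1 was called in P/Rbf tumors against normal gland (adjusted p = 0.0475). Without B1/P/Rbf tumor 4, Lamb2 was called in B1/P/Rbf against B1/P tumors (adjusted p = 0.0366). Lamb1 had 360, 243, 139, 390 and 156 CPM in the B1/P/Rbf model, 237, 275, 390, 202 and 129 CPM in B1/P tumors, 324, 603, 128, 356 and 155 CPM in P/Rbf tumors and 164, 132 and 183 CPM in normal glands. Lamb2 had 155, 174, 187, 91.5 and 217 CPM, 110, 112, 78.2, 126 and 110 CPM, 103, 115, 54.3, 125 and 141 CPM, and 153, 112 and 139 CPM in the same order. All 4 groups overlapped for both genes.

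Lamc1, the γ1 chain of nearly all laminins outside the hemidesmosome, was lower in T121 than in B1/P tumors, as Lama4 was and Lama5 was not. Against normal gland the edgeR fit of all samples with TMM scaling called Lamc1 in B1/P tumors only and Lama4 in T121 tumors only. B1/P tumors had 470, 397, 368, 357 and 298 CPM, above every B1/P/Rbf tumor (237, 240, 197, 142 and 207 CPM), every P/Rbf tumor (192, 218, 101, 103 and 209 CPM) and every normal gland (158, 141 and 179 CPM). It fell by 0.88 in B1/P/Rbf tumors (SE 0.23, adjusted p = 0.0167) and fell by 1.20 in P/Rbf tumors (SE 0.24, adjusted p = 0.00313), and B1/P tumors exceeded normal gland by 1.25 (SE 0.28, adjusted p = 0.00278). In the second set of libraries alone the P/Rbf difference had an adjusted p of 0.185. Lamc3, the γ3 chain, was scarce in tumors, with 0.0649 to 0.496 CPM in the B1/P/Rbf model, 0.252 to 1.89 CPM in B1/P tumors and 0.0526 to 0.681 CPM in P/Rbf tumors except tumor 1 at 7.68 CPM. Normal glands had 12.0, 10.1 and 13.2 CPM, and Lamc3 fell by 5.79 in B1/P/Rbf tumors (SE 1.22, adjusted p = 0.00139) and fell by 3.88 in B1/P tumors (SE 1.13, adjusted p = 0.0138). With a term for the set of libraries these Lamc3 calls had adjusted p values of 0.089 and 0.129. P/Rbf tumors, all below the glands, stood at -2.73 (SE 1.09, adjusted p = 0.0578). That Lamc3 difference was called without P/Rbf tumor 1 (0.00026), by DESeq2 (0.0241) and by limma (0.00091). Without B1/P/Rbf tumor 3 and without B1/P tumor 4 the Lamc3 fold changes were -6.39 and -4.49.

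**Figure D3:**
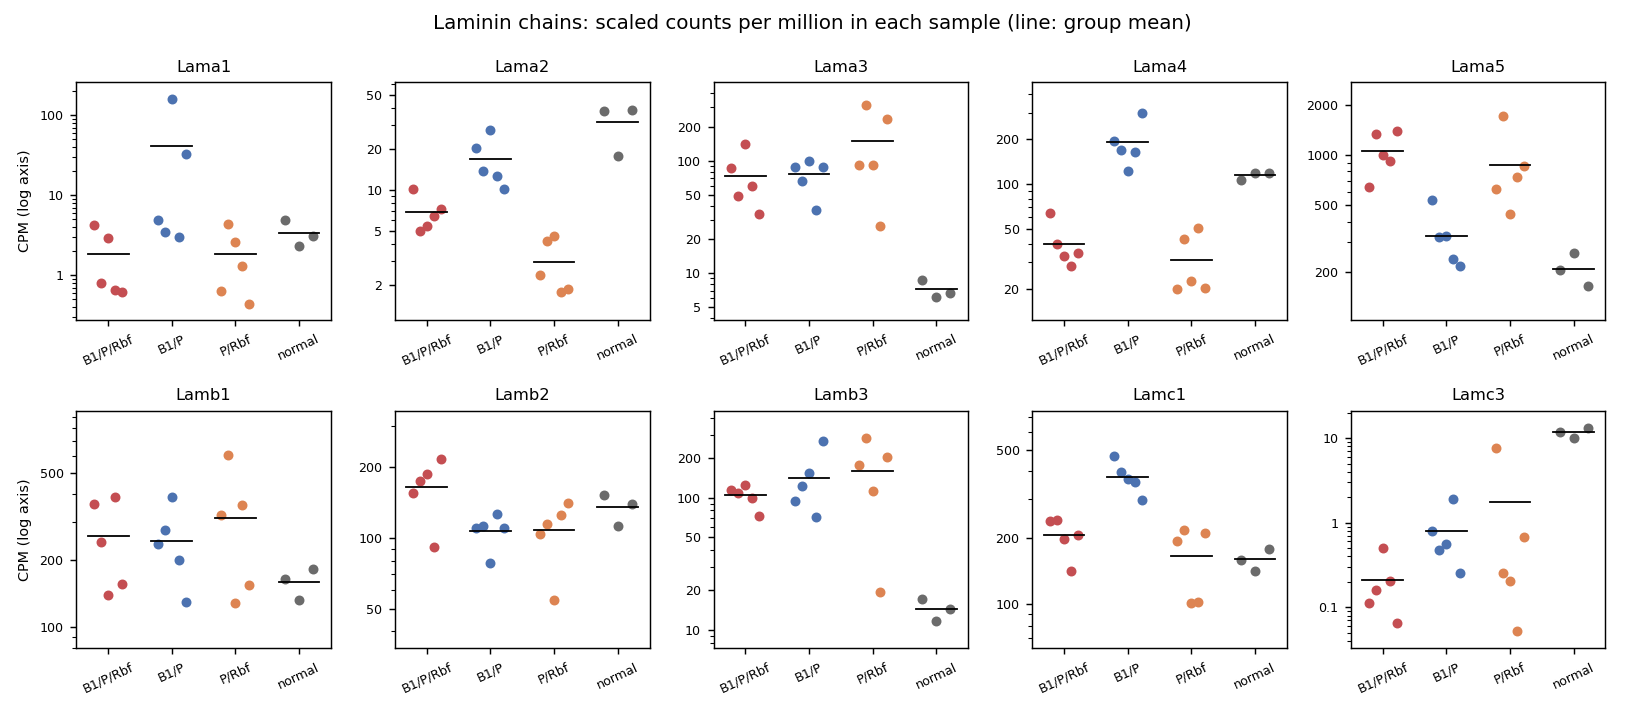
CPM (log axis) of the 10 laminin chains in each sample of the 4 groups (points), with the group mean (line); replicates run from left to right and n is 5 per tumor group and 3 for normal glands. Lama5 is higher and Lama4 and Lamc1 are lower in the B1/P/Rbf than the B1/P model without overlap.

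Of the laminin-binding integrin chains, Itgb4 alone was called between tumor models in the fit of all samples. Itgb4 (chr11:115974709-116008412, plus strand) encodes the β4 chain, which pairs with α6 only. It stood at 175, 200, 222, 216 and 175 CPM in B1/P/Rbf tumors against 585, 370, 635, 499 and 635 CPM in B1/P tumors, without overlap. P/Rbf tumors had 467, 308, 202, 133 and 226 CPM, of which tumor 1 lay within the B1/P range, and normal glands had 31.2, 28.4 and 24.2 CPM. Itgb4 fell by 1.46 in B1/P/Rbf tumors (SE 0.27, adjusted p = 0.00196) and fell by 1.03 in P/Rbf tumors (SE 0.26, adjusted p = 0.0131). The first call held in every alternative. The second had an adjusted p of 0.0508 with a term for the set, 0.222 in the second set alone and 0.0699 with only the 2 groups compared. All tumors exceeded the normal glands, by 2.82 (SE 0.34, adjusted p = 9.0e-06) in B1/P/Rbf, 4.28 (SE 0.37, adjusted p = 6.7e-07) in B1/P and 3.26 (SE 0.35, adjusted p = 2.7e-06) in P/Rbf tumors.

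Itga6, whose α6 chain joins either β4 or β1, did not follow Itgb4. It measured 496, 705, 399, 416 and 227 CPM in the B1/P/Rbf model, 108, 354, 272, 454 and 403 CPM in B1/P tumors, 675, 432, 266, 431 and 515 CPM in P/Rbf tumors and 116, 119 and 115 CPM in normal glands. B1/P tumor 1 was at the level of normal gland, and every other tumor was above it. The difference from B1/P tumors was 0.50 in B1/P/Rbf tumors (SE 0.34, adjusted p = 0.343) and 0.54 in P/Rbf tumors (SE 0.34, adjusted p = 0.272). Against normal gland Itga6 rose by 1.94 in B1/P/Rbf tumors (SE 0.43, adjusted p = 0.00201), by 1.45 in B1/P tumors (SE 0.42, adjusted p = 0.0135, and 0.052 without normal gland 3) and by 1.99 in P/Rbf tumors (SE 0.43, adjusted p = 0.00164).

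Itga3, the α3 chain that pairs with β1, had 331, 141, 230, 197 and 188 CPM in the B1/P/Rbf model, 97.2, 341, 173, 167 and 104 CPM in B1/P tumors, 419, 592, 180, 244 and 220 CPM in P/Rbf tumors and 38.8, 40.0 and 34.9 CPM in normal glands. The tumor models overlapped and all lay above normal gland, by 2.52 (SE 0.47, adjusted p = 0.00053), 2.22 (SE 0.46, adjusted p = 0.00154) and 3.13 (SE 0.49, adjusted p = 0.0001) in the B1/P/Rbf, the B1/P and the P/Rbf model. The first of these had an adjusted p of 0.052 with a term for the set of libraries. Itgb1, the β1 chain shared by α3, α6, α7 and many other α chains, had 1005, 364, 584, 611 and 382 CPM, 362, 607, 301, 560 and 420 CPM, and 971, 547, 545, 371 and 929 CPM in the 3 models in that order, and 317, 308 and 349 CPM in normal glands. In the edgeR fit of all samples with TMM scaling, Itgb1 was called only in P/Rbf tumors against normal gland (1.05, SE 0.37, adjusted p = 0.0344). That call was lost when any 1 of P/Rbf tumors 1 or 5 or of the normal glands was left out, with adjusted p of 0.0501 to 0.0846. B1/P/Rbf tumors, all above normal gland, stood at 0.86 (SE 0.37, adjusted p = 0.0772). That difference was called by limma (0.0339) and by edgeR without TMM (0.0119).

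Itga7, the α7 chain of muscle, ran against the other laminin-binding chains. Normal glands had 103, 98.1 and 122 CPM, while tumors had 32.1, 4.07, 4.52, 13.5 and 5.13 CPM in the B1/P/Rbf model, 18.5, 8.71, 19.3, 7.36 and 5.67 CPM in B1/P and 9.35, 56.0, 3.16, 2.76 and 7.29 CPM in P/Rbf. It fell by 3.18 in B1/P/Rbf tumors (SE 0.87, adjusted p = 0.00872), fell by 3.18 in B1/P tumors (SE 0.87, adjusted p = 0.00974) and fell by 2.78 in P/Rbf tumors (SE 0.86, adjusted p = 0.0177, and 0.0501 without normal gland 3). B1/P/Rbf tumor 1 and P/Rbf tumor 2 were the highest of their groups, and without them the Itga7 fold changes were -3.99 (adjusted p = 0.00263) and -4.26 (adjusted p = 0.00033). The 5 skeletal muscle markers summed to between 21778 and 42844 CPM in normal glands, to 581 CPM in B1/P tumor 5 and to at most 22.5 CPM in the other tumors, and their part in the Itga7 and Lama2 differences was not tested.

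Of the chains of the hemidesmosome, Itgb4 was called between models, and differences between it and the others were not tested. In B1/P/Rbf tumors Itgb4 was lower than in B1/P tumors while its partner Itga6 and its ligand chains Lama3 (-0.04, SE 0.50, adjusted p = 0.971) and Lamb3 (-0.45, SE 0.47, adjusted p = 0.552) were not called. The remaining chain of that laminin was not analysed here. On the scale of level per kb, Itgb4 made up 42.1% ± 11.7 (SD, n = 5) of the sum of Itgb1 and Itgb4 in B1/P tumors, 17.9% ± 5.62 (SD, n = 5) in B1/P/Rbf tumors, 18.8% ± 4.68 (SD, n = 5) in P/Rbf tumors and 4.79% ± 0.808 (SD, n = 3) in normal glands. The ranges of this share in B1/P tumors (26.2 to 55.1%) and in B1/P/Rbf tumors (9.21 to 24.2%) did not overlap. For the laminins that contain α5, Lama5 was higher in T121 tumors while its receptor chains Itga3, Itga6 and Itgb1 were not called. The receptor chain Itgb4 and the γ1 partner were lower. Itga3 stood at 0.91 in P/Rbf against B1/P tumors (SE 0.37, adjusted p = 0.0898) and was called without B1/P tumor 2 (0.0157). For those that contain α4, Lama4 and Lamc1 were lower together, and for those that contain α2, both Lama2 and its receptor chain Itga7 were lower in B1/P/Rbf and P/Rbf tumors than in normal gland.

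**Figure D4:**
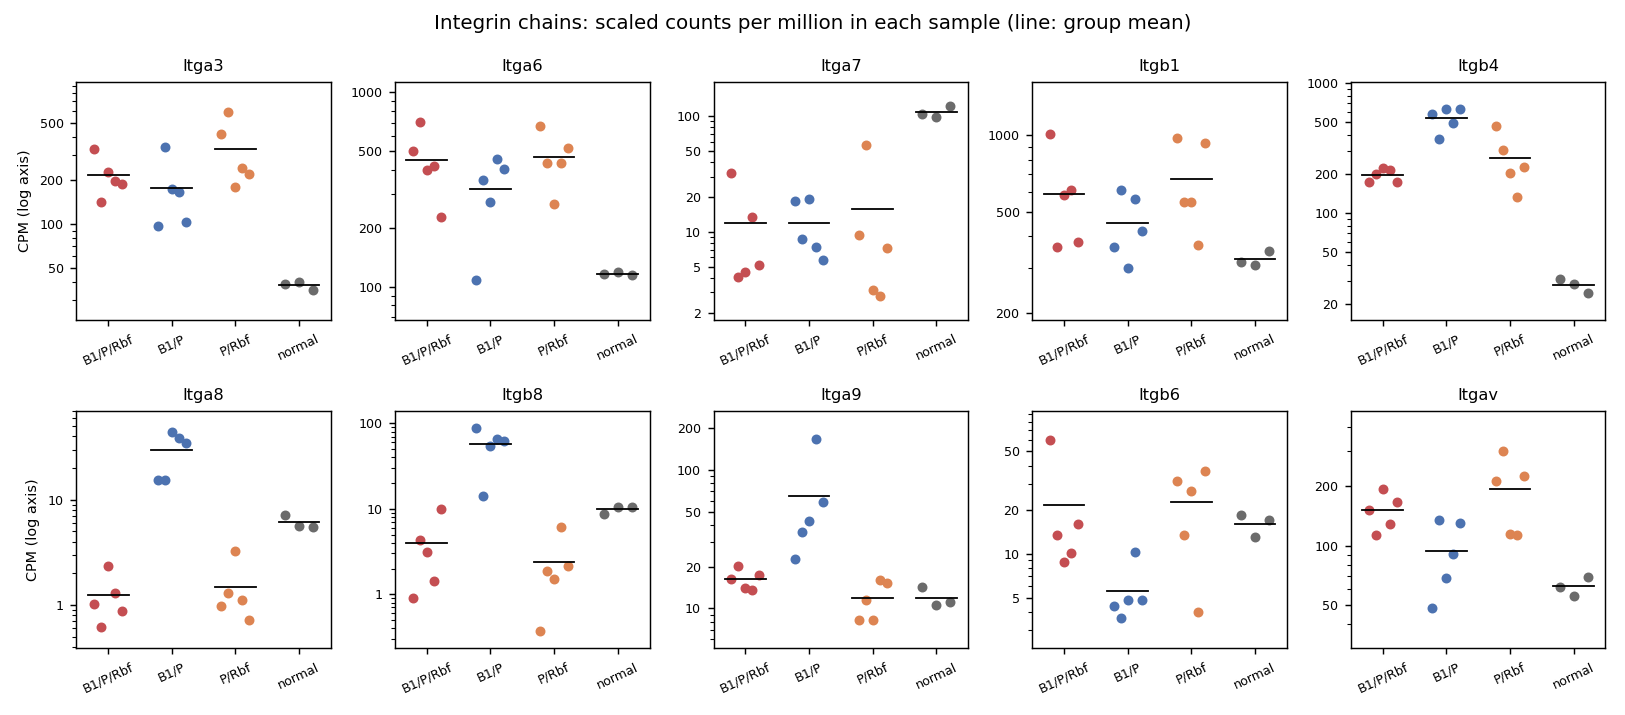
CPM (log axis) of 10 integrin chains in each sample of the 4 groups (points), with the group mean (line), n = 5 per tumor group and 3 for normal glands. Itga8, Itgb8 and Itga9 are lower in every T121 tumor than in any B1/P tumor, and Itgb4 is lower in every B1/P/Rbf tumor.

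Integrins that bind the RGD motif included Itga8, the member with the lowest fold change in B1/P/Rbf against B1/P tumors. Itga8 encodes the α8 chain, a partner of β1 that binds nephronectin and tenascin and is known from mesenchyme and smooth muscle. Itgb8 encodes the β8 chain, which pairs with αv and activates latent TGF-β. They are shown first by the sequence before their start sites, since both members fell together in T121 tumors, and the promoter of Lama5 is set beside them as the laminin that rose. Each line gives the 250 bases before the RefSeq start of the gene (GRCm38.p6), 5′ to 3′ on its strand, with every CG dinucleotide in capitals. The RefSeq start of Itgb8 lies 526 bases inside the GENCODE locus given with its values, so that window is within the annotated gene. That of Itga8 lies 22 bases outside its GENCODE locus, and the starts of Lama5 are the same.

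Itga8, chr2:12301945-12302194, minus strand: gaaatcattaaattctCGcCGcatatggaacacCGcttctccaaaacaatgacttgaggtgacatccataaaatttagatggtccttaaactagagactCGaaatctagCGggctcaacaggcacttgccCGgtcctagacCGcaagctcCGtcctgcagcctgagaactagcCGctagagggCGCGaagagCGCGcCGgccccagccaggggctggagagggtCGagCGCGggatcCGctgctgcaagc

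Itgb8, chr12:119238277-119238526, minus strand: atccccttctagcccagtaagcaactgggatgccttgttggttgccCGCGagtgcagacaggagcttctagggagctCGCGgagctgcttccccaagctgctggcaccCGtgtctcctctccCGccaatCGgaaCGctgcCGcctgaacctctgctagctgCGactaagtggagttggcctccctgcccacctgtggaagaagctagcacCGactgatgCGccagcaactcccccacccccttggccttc

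Lama5, chr2:180225860-180226109, minus strand: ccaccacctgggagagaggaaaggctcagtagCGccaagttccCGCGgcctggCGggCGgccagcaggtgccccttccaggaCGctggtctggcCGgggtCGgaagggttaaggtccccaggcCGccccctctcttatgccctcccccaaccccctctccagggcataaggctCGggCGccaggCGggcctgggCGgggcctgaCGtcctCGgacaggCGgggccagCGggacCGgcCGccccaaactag

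The window of Itga8 holds 18 CG dinucleotides, that of Itgb8 12 and that of Lama5 19, where the median over all 32851 windows was 6 and the quartiles were 2 and 16. The AP-1 letters TGANTCA, found in 7.81% of all windows of 300 bases, the E2F letters TTTCCCGC or TTTGGCGC (1.56%), the GATA letters AGATAA or TGATAA (18.6%) and the E-boxes CACGTG (7.15%) and CAGCTG (16.3%) were searched on both strands. None was found in the windows of these 3 genes, which says only that these letters are not in them. Windows were matched for 23 of 36 members, 26 windows in all, of which 8 held CAGCTG, 3 AP-1, 1 GATA and 0 E2F or CACGTG letters.

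Itga8 (chr2:12106632-12301922, minus strand) had 1.02, 0.621, 2.34, 1.29 and 0.876 CPM in B1/P/Rbf tumors and 0.978, 1.29, 3.26, 1.11 and 0.715 CPM in P/Rbf tumors. In B1/P tumors it had 15.4, 15.3, 44.0, 39.0 and 34.8 CPM, and in normal glands 7.19, 5.56 and 5.55 CPM. T121 tumors lay below the normal glands and these below the B1/P tumors, without overlap. Itga8 fell by 4.59 in B1/P/Rbf tumors (SE 0.52, adjusted p = 9.8e-05) and fell by 4.33 in P/Rbf tumors (SE 0.51, adjusted p = 0.00015) against B1/P tumors. Against normal gland it was lower, at -2.30 in B1/P/Rbf (SE 0.51, adjusted p = 0.00202) and -2.05 in P/Rbf tumors (SE 0.51, adjusted p = 0.00445) and higher by 2.28 in B1/P tumors (SE 0.57, adjusted p = 0.00525). Of these Itga8 calls, the B1/P/Rbf call had an adjusted p of 0.155 with a term for the set of libraries and the P/Rbf call had 0.111 by limma.

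Itgb8 (chr12:119158022-119238802, minus strand) had 0.908, 4.34, 3.09, 1.45 and 9.96 CPM in B1/P/Rbf tumors and 0.374, 1.86, 1.49, 6.19 and 2.14 CPM in P/Rbf tumors. B1/P tumors had 88.4, 14.0, 54.6, 66.2 and 62.4 CPM and normal glands 8.64, 10.5 and 10.5 CPM. B1/P tumor 2 was the lowest of its group and still above every T121 tumor. Itgb8 fell by 3.85 in B1/P/Rbf tumors (SE 0.72, adjusted p = 0.00235) and fell by 4.56 in P/Rbf tumors (SE 0.75, adjusted p = 0.00107). The calls of Itga8 and Itgb8 against B1/P tumors held in every alternative that tested them, and without B1/P/Rbf tumor 5 and P/Rbf tumor 4, the highest of their groups, the Itgb8 values were -4.54 and -5.28. B1/P tumors exceeded normal gland by 2.53 (SE 0.84, adjusted p = 0.0271), while P/Rbf tumors lay below it at -2.03 (SE 0.74, adjusted p = 0.0387, and -2.75 without P/Rbf tumor 4). Without any 1 of the normal glands these had adjusted p values of 0.0778 to 0.0975 and of 0.0757 to 0.102. The B1/P call was also lost without B1/P tumor 1, and the P/Rbf call without P/Rbf tumor 1, 2, 3 or 5 (0.0681 to 0.0772). The P/Rbf call was lost by limma (0.124) and without TMM (0.0742) as well.

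Itgb6, the epithelial β6 chain that also pairs with αv and activates latent TGF-β, went the opposite way to Itgb8. It had 59.5, 13.4, 8.71, 10.0 and 16.0 CPM in the B1/P/Rbf model, 4.39, 3.61, 4.83, 10.3 and 4.86 CPM in B1/P tumors, 31.3, 13.4, 26.8, 4.00 and 36.6 CPM in P/Rbf tumors and 18.3, 12.9 and 17.0 CPM in normal glands. Every B1/P tumor except tumor 2 lay within the range of the T121 tumors, and B1/P tumor 4 also within that of the B1/P/Rbf tumors alone. P/Rbf tumor 4 lay within the range of the B1/P tumors. It rose by 1.94 in B1/P/Rbf tumors (SE 0.58, adjusted p = 0.0305) and by 2.00 in P/Rbf tumors (SE 0.58, adjusted p = 0.0247), and without B1/P/Rbf tumor 1 the first was 1.10 with an adjusted p of 0.127. The first Itgb6 call was also lost within the first set of libraries (0.0763), by limma (0.0767) and without B1/P tumor 1, 2, 3 or 5 (0.0578 to 0.0648). The second was lost with a term for the set (0.23), within the second set (0.316), by limma (0.0648), without B1/P tumor 1 or 3 and without P/Rbf tumor 5 (0.0523 to 0.0608). Itgav, the αv partner of both, had 151, 113, 194, 129 and 166 CPM in the B1/P/Rbf model, 48.3, 134, 68.7, 91.0 and 129 CPM in B1/P and 213, 302, 114, 113 and 224 CPM in P/Rbf tumors, with 61.3, 55.8 and 69.0 CPM in normal glands. It was called in P/Rbf tumors (1.03, SE 0.30, adjusted p = 0.0254), where the groups overlapped and the adjusted p was 0.224 with a term for the set of libraries, and stood at 0.68 in B1/P/Rbf tumors (SE 0.30, adjusted p = 0.136). The Itgav call was also lost without B1/P tumor 1 or 3 or P/Rbf tumor 2 or 5 (0.0541 to 0.0645). Of the other chains of this kind, Itga5 and Itgb5, fibronectin and vitronectin receptor chains, were higher than normal gland in all 3 models, by 1.19 to 1.50 for Itga5 and by 0.73 to 0.85 for Itgb5. The Itgb5 calls were lost in all 3 models without any 1 of the normal glands (adjusted p of 0.0616 to 0.101). Without B1/P/Rbf tumor 1, 2, 4 or 5 the Itgb5 call of that model was lost too (0.0577 to 0.0947), as it was with a term for the set (0.391). The B1/P call of Itgb5 was lost without B1/P tumor 2 (0.0513) and with the set term (0.111), and the P/Rbf call without P/Rbf tumor 2 (0.0734). The Itga5 call of B1/P/Rbf tumors was lost without normal gland 3 (0.059) and with the set term (0.478), and that of B1/P tumors with the set term (0.0621). Itga2b, the platelet chain, was lower than normal gland in B1/P/Rbf and P/Rbf tumors, at 2.19 to 6.50 CPM against 8.84 to 11.6 CPM. These calls were lost without normal gland 1 or 2, without B1/P/Rbf tumor 2 or without P/Rbf tumor 1 (0.0522 to 0.0781). Both Itga2b calls were also lost without TMM (0.0739 and 0.0525), and that of P/Rbf tumors by limma (0.105). Itgb3 was called in no comparison by the edgeR fit of all samples with TMM scaling. Against normal gland that fit gave 2.13 in B1/P/Rbf (SE 0.86, adjusted p = 0.0604) and 1.80 in P/Rbf tumors (SE 0.84, adjusted p = 0.101). DESeq2 called both Itgb3 differences (0.0182 and 0.0465), and limma called the first (0.0416).

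Itga9, the α9 chain that binds tenascin, osteopontin and VCAM1, had 16.3, 20.2, 14.0, 13.5 and 17.3 CPM in B1/P/Rbf tumors and 8.31, 11.5, 8.28, 16.0 and 15.2 CPM in P/Rbf tumors. In B1/P tumors it had 22.7, 35.7, 42.4, 167 and 58.4 CPM, above all others, and in normal glands 14.2, 10.6 and 11.1 CPM. It fell by 2.01 in B1/P/Rbf tumors (SE 0.42, adjusted p = 0.00441) and fell by 2.46 in P/Rbf tumors (SE 0.43, adjusted p = 0.00149), and B1/P tumors exceeded normal gland by 2.45 (SE 0.52, adjusted p = 0.00183). B1/P tumor 4, at 167 CPM, set the size of these values: without it the fold changes of Itga9 were -1.29 (adjusted p = 0.00707), -1.75 (adjusted p = 0.00145) and 1.73 (adjusted p = 0.00116). With a term for the set of libraries they were -1.05 (adjusted p = 0.0442), -3.25 and 3.24, and in the first set alone the B1/P/Rbf difference was -1.02 with an adjusted p of 0.0519. Its relative Itga4, the α4 chain of leukocytes, was lower than normal gland in all 3 models with fold changes of -3.31 to -2.18, and was called between no models.

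Collagen receptors are α1, α2, α10 and α11, each with β1. Itga1 had 39.7, 16.5, 12.8, 19.3 and 20.6 CPM in the B1/P/Rbf model, 41.7, 40.9, 71.2, 42.1 and 39.7 CPM in B1/P tumors, 16.0, 30.4, 13.7, 31.2 and 18.6 CPM in P/Rbf tumors and 49.6, 49.5 and 57.9 CPM in normal glands. P/Rbf tumors lay below all B1/P tumors, and B1/P/Rbf tumor 1 reached the lowest of them. Itga1 fell by 1.11 in B1/P/Rbf tumors (SE 0.31, adjusted p = 0.0205) and fell by 1.10 in P/Rbf tumors (SE 0.31, adjusted p = 0.0199). Without B1/P tumor 3 the adjusted p values were 0.0566 and 0.0562, without B1/P/Rbf tumors 2 or 3 the first was 0.0539 and 0.0518, and without P/Rbf tumor 1 the second was 0.0532. Within the first set of libraries the B1/P/Rbf difference in Itga1 had an adjusted p of 0.0844, and the P/Rbf difference had 0.154 with a term for the set and 0.234 within the second set. Itga2, an epithelial collagen receptor, exceeded normal gland in all 3 models by 2.39 to 4.17, with tumors at 10.8 to 226 CPM and glands at 6.97 to 8.02 CPM. The B1/P call of Itga2 (2.39, adjusted p = 0.0439) was lost without any 1 of the normal glands, without B1/P tumor 2 or 3 (0.0511 to 0.131) and with a term for the set (0.377). The P/Rbf call was lost without any 1 of the normal glands (0.0611 to 0.0805) and the B1/P/Rbf call with the set term (0.163). By limma the B1/P and P/Rbf calls of Itga2 were lost (0.137 and 0.0847). Itga10 and Itga11 were called in no comparison.

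Markers of other cell types were summed beside these members, where 7.36% and 8.43% of all genes were called higher and 9.29% and 10.8% lower in B1/P/Rbf and P/Rbf tumors. The 7 fibroblast markers summed to 998 to 1866 CPM in B1/P tumors, 407 to 1362 CPM in B1/P/Rbf tumors and 419 to 923 CPM in P/Rbf tumors, and 2 and 4 of the 7 were called lower in the T121 models. The 5 smooth muscle and pericyte markers summed to 413 to 741, 171 to 520 and 184 to 386 CPM, with 2 and 4 of the 5 called lower. The 8 myoepithelial and basal markers summed to 372 to 2190 CPM in B1/P, 53.2 to 337 CPM in B1/P/Rbf and 78.4 to 1461 CPM in P/Rbf tumors, with 3 and 2 of the 8 called lower, and the 6 luminal markers to 738 to 2349, 2577 to 5069 and 4028 to 8458 CPM, with 2 and 4 of the 6 called higher. Of the 6 endothelial markers 0 were called between models, with sums of 123 to 316 CPM in B1/P, 116 to 380 CPM in B1/P/Rbf and 89.4 to 314 CPM in P/Rbf tumors. The basal marker Krt5 had no counts in at least 1 B1/P tumor, and no fibroblast, pericyte, luminal or endothelial marker was without counts in any sample. The part of these cell types in the differences of Itga1, Itga8, Itga9, Itgb4, Itgb8, Lama2, Lama4, Lama5 and Lamc1 was not tested.

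Of 7 leukocyte integrin chains, edgeR called 0 lower in B1/P/Rbf and 2 in P/Rbf against B1/P tumors, where 9.29% and 10.8% of all genes were. None was called higher. In P/Rbf tumors Itgal stood at -1.61 (SE 0.58, adjusted p = 0.0594) and Itgam at -1.84 (SE 0.64, adjusted p = 0.0537). DESeq2 called both lower (0.0241 and 0.0175), where it called 26.2% of all genes, as did edgeR without B1/P tumor 1, 4 or 5 (0.0285 to 0.0449). Itgb2, the β2 chain of leukocytes, had 34.5, 32.2, 19.9, 28.8 and 41.3 CPM in the B1/P/Rbf model, 16.4, 141, 52.8, 17.3 and 17.8 CPM in B1/P tumors, 10.5, 17.3, 13.8, 30.9 and 11.9 CPM in P/Rbf tumors and 47.8, 60.5 and 39.8 CPM in normal glands. B1/P tumor 2 stood far above all other samples. Itgb2 fell by 1.54 in P/Rbf tumors against B1/P tumors (SE 0.53, adjusted p = 0.0493), and without B1/P tumor 2 the fold change was -0.63 with an adjusted p of 0.256. The Itgb2 call was lost in 11 of 17 alternatives, with an adjusted p of 0.964 where a term for the set of libraries was fitted. Itgax, the αX chain of dendritic cells and macrophages, had 27.6, 40.0, 17.5, 35.2 and 47.7 CPM, 31.8, 110, 97.6, 24.2 and 37.2 CPM, 16.1, 30.1, 15.8, 25.1 and 17.5 CPM and 7.97, 10.4 and 6.47 CPM in the same order. B1/P tumors 2 and 3 were the highest, the groups overlapped, and the fold change of -1.52 in P/Rbf tumors (SE 0.40, adjusted p = 0.0148) had an adjusted p of 0.443 with a term for the set.

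The 11 pan-leukocyte and myeloid markers summed to 3686 CPM in B1/P tumor 2 and 1158 CPM in B1/P tumor 3, to 325 to 438 CPM in the other B1/P tumors, to 483 to 911 CPM in B1/P/Rbf tumors, to 312 to 807 CPM in P/Rbf tumors and to 623 to 796 CPM in normal glands. The B1/P tumors with the highest Itgb2 and Itgax were those with high myeloid markers, and the part of those cells was not tested. Against normal gland, Itgax was higher in all 3 models by 1.34 to 2.86. The Itgax call of B1/P/Rbf tumors had an adjusted p of 0.496 with a term for the set, and that of P/Rbf tumors was lost without normal gland 1 or 3 or P/Rbf tumor 2 or 4 (0.0582 to 0.135). Itgb7, the β7 chain of gut-homing lymphocytes, was lower in all 3 with fold changes of -4.66 to -4.25. Without B1/P tumor 3 and P/Rbf tumor 2 the Itgb7 values of those models were -4.87 and -5.35. Itgal was lower in B1/P/Rbf and P/Rbf tumors, Itgae in B1/P/Rbf and B1/P tumors, and Itgam higher in B1/P tumors. In B1/P tumors Itgal stood at -1.27 (SE 0.63, adjusted p = 0.133) and was called without B1/P tumor 2 (0.0124) and by limma (0.0139). Itgad, at 0 to 2.18 CPM, was called in no comparison with all samples. It was called in B1/P/Rbf against B1/P tumors without B1/P tumor 3 (0.0477) and in P/Rbf tumors against normal gland without P/Rbf tumor 4 (0.0439). The Itgam call, a fold change of 2.31, was lost without B1/P tumor 2 (0.88, adjusted p = 0.145) and by limma (0.0984). It was also lost without any 1 of the normal glands (0.0801 to 0.123) and with a term for the set (0.785). The Itgae calls were lost in 9 of 14 alternatives for B1/P/Rbf tumors and 7 of 14 for B1/P tumors, each normal gland left out among them (0.0511 to 0.115), while without B1/P/Rbf tumor 3 the Itgae fold change of that model went from -2.34 to -3.14. The 9 T and B lymphocyte markers summed to 460 to 641 CPM in normal glands and to 2.68 to 35.9 CPM in tumors, all 9 called lower in each model.

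**Figure D5:**
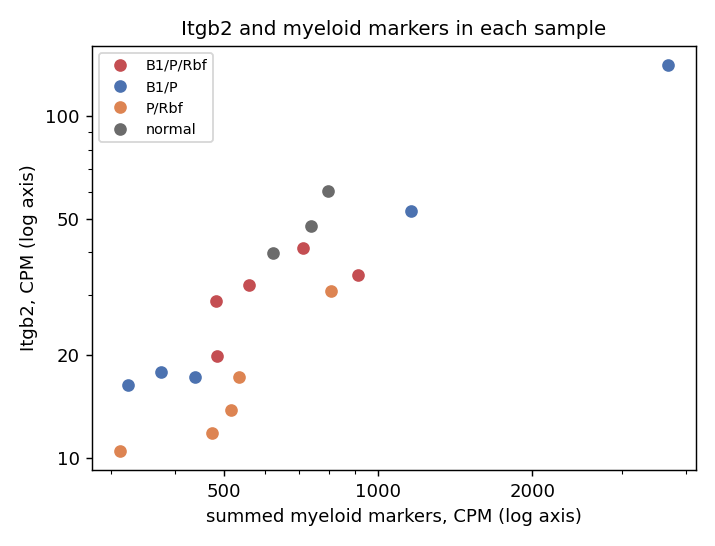
CPM of Itgb2 (y axis, log) against the summed CPM of 11 pan-leukocyte and myeloid markers (x axis, log) in each of the 18 samples, coloured by group. B1/P tumor 2, at 3686 CPM of markers and 141 CPM of Itgb2, lies apart from the rest.

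Against normal gland, 22 of 36 members were called in B1/P/Rbf tumors (11 higher and 11 lower), 20 in B1/P tumors (15 and 5) and 23 in P/Rbf tumors (12 and 11). The shares over all genes tested were 37% (17.1% higher and 20% lower), 33.8% (16.8% and 16.9%) and 37.7% (17.4% and 20.3%). Without overlap, in B1/P/Rbf tumors 14 members lay above and 11 below normal gland, where the shares over all genes were 23.1% and 27.4%. The counts were 13 and 6 in B1/P tumors (18.7% and 22.7%) and 13 and 12 in P/Rbf tumors (20% and 26.5%). With a term for the set of libraries 13 members were called in B1/P/Rbf tumors (20.2% of all genes), 16 in B1/P tumors (26.1%) and 23 in P/Rbf tumors (38.8%). That term cost B1/P/Rbf tumors 11 of their 22 calls, those of Itga1, Itga2, Itga3, Itga5, Itga8, Itgae, Itgax, Itgb5, Lama4, Lama5 and Lamc3 (0.052 to 0.496), and added Itga9 (0.00898) and Itgb2 (0.0302). It cost B1/P tumors 7 of 20, those of Itga2, Itga5, Itgae, Itgam, Itgb5, Lama1 and Lamc3 (0.0621 to 0.785), and added Itga2b (0.0204), Itgal (0.0248) and Lama2 (0.0465). It cost P/Rbf tumors 0 of 23 and added 0. That result says little, because P/Rbf libraries and gland libraries share the same set and the term does not separate them. B1/P/Rbf libraries lie in a different set from the glands, so the adjusted estimates of that model rest on the B1/P tumors. The losses in the 3 models are therefore not comparable as a measure of how far the calls depend on the set. Because the 3 models share the normal glands, the calls are given side by side. Higher in all 3 models were Itga2, Itga3, Itga5, Itga6, Itgax, Itgb4, Itgb5, Lama3 and Lamb3, and lower in all 3 were Itga4, Itga7 and Itgb7. Only Itga8 and Itgb8 were called in opposite directions, higher in B1/P tumors and lower in T121 tumors, of which Itgb8 in P/Rbf tumors only. Markers of fat, muscle and lymphocytes summed lower in tumors than in normal glands: the 6 adipocyte markers summed to 9291 to 13360 CPM in glands and to 6.63 to 176 CPM in tumors. The 6 luminal markers summed to 1423 to 1822 CPM in glands and to 738 to 8458 CPM in tumors. Of these 6, 4 were called higher in B1/P/Rbf, 3 in B1/P and 5 in P/Rbf tumors. The part of all these cell types in the differences from normal gland was not tested.

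Of the other proteins of the basement membrane, Col4a1 and Col4a2 were lower in B1/P/Rbf than B1/P tumors and most genes were not called. Of 14 measured genes, 0 rose and 4 fell in B1/P/Rbf against B1/P tumors, where 7.36% and 9.29% of all genes did: Col18a1 (-2.45, SE 0.43, adjusted p = 0.00156), the network collagens Col4a1 (-1.71, SE 0.29, adjusted p = 0.0012) and Col4a2 (-1.59, SE 0.30, adjusted p = 0.00232), and the perlecan gene Hspg2 (-1.53, SE 0.50, adjusted p = 0.044). The median of the 14 was -0.996 against -0.06 for all genes, 3 of the 14 had positive values, and in P/Rbf tumors 0 were higher and 5 lower, where 8.43% and 10.8% of all genes were. The Hspg2 call was lost in 10 of 18 alternatives (adjusted p of 0.0557 to 0.0999), among them without B1/P/Rbf tumor 2, 3, 4 or 5 and without B1/P tumor 1, 2, 3 or 5. Col4a1 averaged 446 CPM ± 199 (SD, n = 5) in B1/P/Rbf, 1464 CPM ± 266 (SD, n = 5) in B1/P, 329 CPM ± 120 (SD, n = 5) in P/Rbf and 576 CPM ± 80.9 (SD, n = 3) in normal samples.

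Among 8 other laminin receptors and hemidesmosome proteins, only Col17a1, the transmembrane collagen that binds α6β4, was called, and it was lower in B1/P/Rbf tumors (-5.38, SE 1.38, adjusted p = 0.0144). B1/P tumors had 469, 0.829, 656, 409 and 438 CPM of Col17a1, B1/P/Rbf tumors 0.054 to 28.8 CPM and P/Rbf tumors 1.81 to 60.4 CPM. B1/P tumor 2 lay within the range of B1/P/Rbf tumors, and the Col17a1 call was lost by limma (0.109) and within the first set of libraries (0.0916). Without B1/P/Rbf tumor 4 the Col17a1 fold change was -6.41. The shares over all genes in this comparison were 7.36% higher and 9.29% lower, and the counts of the lists here are read against them. Of 17 integrin activators and adhesion adaptors, 1 was higher and 1 lower, which is no more than those shares: the docking protein gene Bcar1 was higher (0.83, SE 0.25, adjusted p = 0.0329) and the kinase gene Src lower (-1.26, SE 0.27, adjusted p = 0.00496). The Bcar1 call was lost in 8 of 18 alternatives (0.0556 to 0.114), among them without B1/P/Rbf tumor 1, 2 or 4 and without B1/P tumor 2, 3 or 5. Of 13 tested ligands of the other integrins, 3 were higher and 3 lower. The 4 with the largest change were Madcam1, a ligand of β7 integrins (5.85, SE 1.75, adjusted p = 0.0305, at 0 to 46.8 CPM in B1/P/Rbf tumors), Spp1, which encodes osteopontin (-2.69, SE 0.71, adjusted p = 0.0168), Icam1, a β2 ligand (-1.95, SE 0.54, adjusted p = 0.02), and Cdh1, E-cadherin, the ligand of αE (1.67, SE 0.30, adjusted p = 0.00181). B1/P tumor 2 had 2110 CPM of Spp1 and the other B1/P tumors 127 to 323 CPM, and without it the Spp1 fold change was -1.27 (adjusted p = 0.0734). B1/P tumor 3 had 187 CPM of Icam1 and the others 17.4 to 62.1 CPM, and without it the Icam1 fold change was -1.05 (adjusted p = 0.0853). Without B1/P/Rbf tumor 5, which had 46.8 CPM, the Madcam1 fold change was 2.97 (adjusted p = 0.17), and leaving out B1/P tumor 1, 2, 4 or 5 gave adjusted p values of 0.0547 to 0.0641.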

How the data were processed

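RNA of 15 mammary tumors and 3 normal glands was sequenced by the authors from stranded mRNA libraries as read pairs, after trimming with cutadapt 1.18. The deposited values are expected counts per gene from RSEM 1.3.0, which the authors deposited without scaling or filtering, and 5.61% are not whole, since RSEM shares out reads among matching genes. A human genome is named in the methods, while all 55450 identifiers and symbols are those of the mouse annotation GENCODE M21 (GRCm38), from which loci and exon lengths were taken. Whether counting used the strand is not given in the sources used here; 14 members overlap another gene on the same strand and 15 on the other, and their counts may include such reads. No per-sample column was left unused.

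Whole numbers rounded from the expected counts entered edgeR 4.0.16 (R 4.3.3): filterByExpr with a minimum count of 10, TMM scaling, and a quasi-likelihood test of group, with no further term, on 18 samples, Benjamini-Hochberg adjusted over 19186 genes. CPM per kb used the union of a gene's exons, and differences of log2 CPM used a prior count of 2. Replicates differed beyond counting noise (chi-square per degree of freedom 25 to 516), so the spread between mice, not depth, limits the precision. Alternatives were DESeq2 1.42.0, limma 3.58.1 (voom with quantile normalization), other scaling and filters, other samples, and terms for the set of libraries. The members and gene lists were chosen with earlier results of these data known. Every laminin chain, every laminin-binding integrin chain and every other member that the edgeR fit of all 18 samples called between tumor models is given in each sample or by range where scarce. Of the partner lists up to 4 called genes with the largest fold change in B1/P/Rbf against B1/P tumors are named.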

Additional observations from a re-analysis of the deposited data

Results flagged for a closer look

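In groups of 5 tumors, 108 sets of values were examined for a sample far from the rest, and 4 had one, where chance gives about 1 in 20. Itga1 in B1/P tumor 3 was the highest of its group at 71.2 CPM, with the other 4 at 39.7 to 42.1 CPM. Itgb6 in B1/P tumor 4 was the highest at 10.3 CPM, with the others at 3.61 to 4.86 CPM. Itgb8 in B1/P tumor 2 was the lowest at 14 CPM, with the others at 54.6 to 88.4 CPM. Itgae in B1/P/Rbf tumor 3 was the highest at 6.4 CPM, with the others at 1.13 to 1.49 CPM.

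For Itga8 and Itgb8 the difference from normal gland had opposite signs in different models. The difference between the models was taken from the same edgeR fit, as their comparison with B1/P tumors. A gene was flagged only where this difference was also called, so its adjusted p is part of the rule and no further test. For Itga8 it was -4.59 in B1/P/Rbf tumors (adjusted p = 9.8e-05) and -4.33 in P/Rbf tumors (adjusted p = 0.00015), and for Itgb8 it was -4.56 in P/Rbf tumors (adjusted p = 0.00107).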

How the results depend on the processing

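No paired analysis was possible because the labels give the groups no shared replicate numbers. With genes required to reach a log2 CPM of 6 in 6 samples, 16 members were tested, and 4, 5, 9, 7 and 10 were called in B1/P/Rbf against B1/P, P/Rbf against B1/P, and, against normal gland, the B1/P/Rbf, the B1/P and the P/Rbf tumors. The shares of the 4551 genes tested there were 19.5%, 19%, 38.7%, 35.2% and 36.7%. A term for the set of libraries left 7 members called in P/Rbf against B1/P tumors (10.5% of all genes) and 13 in B1/P/Rbf tumors against normal gland (20.2%); a single set left 7 in B1/P/Rbf (7.73%) and 4 in P/Rbf (4.01%) against B1/P tumors. DESeq2 called 2 members (5.35%) between the T121 models. Leaving out 1 sample at a time gave 8 to 13 calls in B1/P/Rbf against B1/P tumors, 9 to 16 in P/Rbf against B1/P tumors (9 without B1/P tumor 3), 0 between the T121 models, and 19 to 22, 13 to 20 (13 without normal gland 3) and 16 to 23 against normal gland in the B1/P/Rbf, the B1/P and the P/Rbf model. The shares of all genes ran from 12.1% to 18.1%, 14.4% to 20.5%, 0.0471% to 0.686%, 25% to 36.3%, 21.7% to 33.7% and 25.9% to 38% in those comparisons. Itgam changed sign to 0.17 and 0.20 in P/Rbf against B1/P tumors with a set term and within a set, and to -0.93 in B1/P/Rbf tumors against normal gland with a set term. The cause of these changes was not tested, and some alternatives hold fewer genes or samples. Of 1772 alternative values of members called in a comparison in at least 1 setting, 1535 kept direction and call, 185 lost a call, 49 gained one and 3 changed sign. In 100 further pairs of a member and a comparison no setting made a call, and 58 of these changed sign in some alternative. Of 25 calls against B1/P tumors 10 held in every alternative that tested them, and of 65 against normal gland 35 did. For the partner genes named, the same alternatives were run after seeing the data. Without TMM the median of all genes moved from 0.05, 0.12 and 0.05 to 0.42, 0.47 and 0.33 against normal gland, and the members' values there are relative to that shift.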
